A study of Mus musculus with 13 samples.

Results

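Cathepsins are the proteases of the lysosome. The 10 cathepsin genes described here, Ctsa, Ctsb, Ctsc, Ctsd, Ctse, Ctsf, Ctsh, Ctsl, Ctss and Ctsz, were taken by gene symbol from the 52636 genes listed for each of 13 mice. The choice rule names the genes and uses no measured value, though the family was picked with earlier results of these data known. They span 3 catalytic classes. Ctsd and Ctse are aspartic proteases, Ctsb, Ctsc, Ctsf, Ctsh, Ctsl, Ctss and Ctsz are papain-like cysteine proteases, and Ctsa is a serine carboxypeptidase. Cathepsins are made as inactive proenzymes, are carried from the Golgi to the endolysosome (largely by mannose 6-phosphate receptors) and become active there at acid pH. In microglia, the resident macrophages of the brain, they digest engulfed material and cleave proteins destined for antigen presentation, and small proteins of the cystatin family inhibit the cysteine members.

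The study asked how microglia of a β-amyloid mouse model differ when they lack Trem2, a microglial surface receptor. All 13 mice carried the PS2APP transgenes, human presenilin 2 and human APP each with a familial Alzheimer's disease mutation, and were 14 to 15 months old. The 7 PS2APP;Trem2wt mice (5 females, 2 males) had intact Trem2, and the 6 PS2APP;Trem2ko mice (5 females, 1 male) carried a germline null allele of Trem2, which is lost in every cell that would express it. Each library came from 1 mouse and held RNA from live cells of cortex and hippocampus sorted as CD11b+, CD45+, Ccr2- and Ly6g-, a gate that takes microglia and also a small number of perivascular macrophages. Mice without the PS2APP transgenes were not analysed here, so values are differences between 2 plaque-bearing genotypes and not responses to amyloid. The null allele was made in C57BL/6N cells and the transgenic line is C57BL/6J. Breeders were heterozygous for the null allele so that littermates could be used in both groups, and C57BL/6N sequence linked to Trem2 on chromosome 17 cannot be told apart from its loss. None of the 10 cathepsin genes is on that chromosome. Tfeb, named below, is on it, as are Gnptg, Igf2r and Neu1 of the gene lists counted below.

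Libraries held 26120961 to 114857155 gene counts in Trem2wt mice and 41567025 to 120569609 in Trem2ko mice. Trem2 was at 1044 ± 141 nRPKM (mean ± SD, n = 7) in Trem2wt and 0.887 ± 0.73 (n = 6) in Trem2ko mice, with no overlap, so each library matched its label. The nRPKM is the submitters' read count per length of gene and per depth of library, adjusted by a size factor for each library, so it can be compared between genes. All 10 microglial markers checked passed the filter on low counts, and their summed level was 14672 to 18213 nRPKM in Trem2wt and 15370 to 17216 in Trem2ko mice. One of them was called, Cx3cr1, the fractalkine receptor, which was lower in Trem2ko mice (log2 fold change -0.49 ± 0.09 SE, adjusted p = 0.0067). No marker of border macrophages, monocytes, neutrophils, B cells, T and NK cells, neurons, astrocytes, oligodendrocytes or endothelium was called by edgeR. Neutrophil markers had the widest gap: the 6 summed to 5.52 to 118 nRPKM in Trem2wt and 0.127 to 17.5 in Trem2ko mice, nearly all of it from S100a8 and S100a9, while Ly6g, Mpo, Elane and Retnlg did not pass the filter. Their part in the cathepsin values was not tested. In sorted bulk RNA, fewer cells that express a gene and less RNA per cell cannot be told apart, for every result below.

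PS2APP microglia expressed 9 of the 10 cathepsins at high levels and in the same order in both genotypes. On the per-length nRPKM scale, Ctsd was the 2nd most abundant of the 17086 genes tested, Ctss the 5th, Ctsz the 12th and Ctsb the 21st, while Ctse came 5541st. Ctsd, the main aspartic protease of the lysosome, averaged 8724 ± 1223 nRPKM in Trem2wt and 7595 ± 1014 in Trem2ko mice. Ctss, a cysteine endopeptidase that remains active at neutral pH and trims the invariant chain of MHC class II, averaged 5545 ± 888 and 5882 ± 669. These 2 genes made up 73.4% ± 0.78 of the summed nRPKM of the family in Trem2wt (n = 7) and 73.7% ± 1.4 in Trem2ko mice (n = 6).

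Below them came Ctsz, a carboxypeptidase, at 2141 ± 390 nRPKM in Trem2wt and 1914 ± 156 in Trem2ko mice, and Ctsb, an endopeptidase that also removes dipeptides from the carboxyl end, at 1360 ± 246 and 1347 ± 179. Ctsa, which also shields β-galactosidase and neuraminidase in a protective complex, averaged 580 ± 102 and 535 ± 35.3, and the aminopeptidase Ctsh averaged 491 ± 48.4 and 427 ± 46.1. Ctsl, an endopeptidase, averaged 251 ± 54.0 and 215 ± 23.9. Ctsc, the dipeptidyl peptidase that activates granule serine proteases, averaged 200 ± 23.4 and 201 ± 23.5, and Ctsf, another endopeptidase, 157 ± 16.8 and 147 ± 11.9. The last in the order was Ctse, an endosomal aspartic protease related to Ctsd, at 9.30 ± 5.5 and 3.08 ± 1.3.

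The order held within single mice for most neighbours. Ctsa exceeded Ctsh in 6 of 7 Trem2wt mice and in all 6 Trem2ko mice, and Ctsl exceeded Ctsc in all 7 and in 5 of 6, while each other pair of neighbours kept its order in all 13 mice. Over all 13 mice, however, the ranges of 5 neighbouring pairs overlapped: Ctsd with Ctss, Ctsz with Ctsb, Ctsa with Ctsh, Ctsl with Ctsc, and Ctsc with Ctsf. The step from Ctsf to Ctse was the widest, and Ctsf was 7.13 to 103 times Ctse within a mouse.

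**Figure D1:**
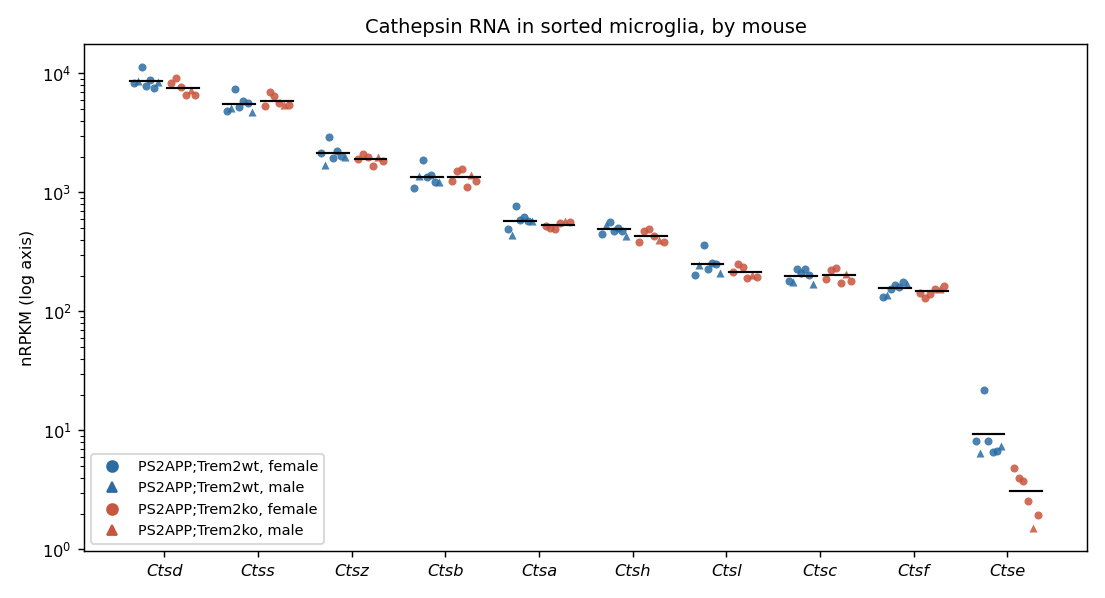
Level of each cathepsin in each mouse, as nRPKM on a log axis, in the order of the mean over 13 mice; circles are females, triangles males, blue PS2APP;Trem2wt (n = 7), red PS2APP;Trem2ko (n = 6), and the bars are group means. In 9 genes the 2 genotypes lie over each other, and in Ctse all red points lie below all blue ones.

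As a share of all gene counts, the 10 cathepsins took 5.80% ± 0.59 in Trem2wt (lowest 5.38%, median 5.65%, highest 7.06%) and 5.61% ± 0.56 in Trem2ko mice (lowest 5.0%, median 5.58%, highest 6.50%). The ranges overlapped. Without Trem2wt replicate 3, the mouse with the highest share, the Trem2wt value was 5.59% ± 0.23 (n = 6).

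Promoter sequences, the 250 bases before the RefSeq start site, were at hand for 7 of the 10 genes (8 start sites, GRCm38.p6). They are shown for Ctsd, the most abundant member, and for Ctsl and Ctss, the pair whose levels moved together most closely between mice (described after the genotype comparison). Transcription factors of the MiT/TFE family, which drive lysosomal genes, bind E-boxes with the core CACGTG. Capitals mark CACGTG, which reads the same on both strands, and each sequence runs 5′ to 3′ on the strand of its gene.
Ctsd, chr7:142387828-142388077, minus strand: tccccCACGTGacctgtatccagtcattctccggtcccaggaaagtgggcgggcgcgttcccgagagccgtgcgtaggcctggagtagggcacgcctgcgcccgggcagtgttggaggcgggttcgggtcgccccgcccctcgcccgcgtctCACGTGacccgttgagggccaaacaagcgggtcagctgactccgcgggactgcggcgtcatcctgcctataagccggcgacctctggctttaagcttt
Ctsl, chr13:64370521-64370770, minus strand: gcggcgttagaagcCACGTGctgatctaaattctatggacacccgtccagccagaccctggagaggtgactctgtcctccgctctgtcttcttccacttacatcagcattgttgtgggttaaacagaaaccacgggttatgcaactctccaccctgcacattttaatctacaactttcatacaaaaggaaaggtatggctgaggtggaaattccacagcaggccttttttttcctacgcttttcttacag
Ctss, chr3:95526536-95526785, plus strand: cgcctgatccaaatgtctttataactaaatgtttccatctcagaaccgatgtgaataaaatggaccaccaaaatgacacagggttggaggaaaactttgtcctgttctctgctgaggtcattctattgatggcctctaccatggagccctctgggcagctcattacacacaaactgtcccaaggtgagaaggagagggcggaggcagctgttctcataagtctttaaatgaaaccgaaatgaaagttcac
CACGTG was found in 4 of the 8 promoters, those of Ctsa (1 of its 2), Ctsd, Ctsf and Ctsl, and in 6.02% of the 32851 mouse promoters of the same length. In the GENCODE M21 annotation, the Ctsl window and that Ctsa window lie wholly inside the gene. The annotated gene starts are 64370890 for Ctsl and 164832873 for Ctsa. The other Ctsa window, just before the annotated start, held no CACGTG. Most of the Ctsd window also lies inside the gene, which starts at 142388038. Ctsd held 2 copies, 245 and 98 bases before the start, and Ctsl 1 copy, 236 bases before it. The longer form TCACGTGA, which contains CACGTG, was found in Ctsa and Ctsd and in 0.785% of all promoters. The letters GAGGAAGT, a form bound by the myeloid factor PU.1, were searched on both strands and found in the Ctsc promoter, and in 2.44% of all promoters. These matches describe the sequence and were not tested for binding.

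Between genotypes, Ctse was lower in Trem2ko mice and no other cathepsin passed the test. Of the 10 genes, 1 was called lower and 0 higher by edgeR's quasi-likelihood test (threshold 0.05 on p-values adjusted across the 17086 genes tested). At an unadjusted p under 0.05, 2 were lower (Ctse and Ctsh) and 0 higher, and voom with limma and DESeq2 each called 1 lower and 0 higher. Among all genes tested, 262 (1.53%) were called lower and 86 (0.503%) higher. By unadjusted p of the edgeR test, the gene at 0.0411 ranked 2269th of the 17086 and the gene at 0.0532 ranked 2626th. The number of genes with an unadjusted p under 0.05 in either direction lies between these ranks. That background also applies to the unadjusted counts of the gene lists below. The point estimates were negative for 8 members and positive for 2, with a median log2 fold change (Trem2ko minus Trem2wt) of -0.14 for the family and 0.0039 over all genes. Without Trem2wt replicate 3, the estimate of Ctsb turned positive (0.07) and that of Ctss rose to 0.16. Those of Ctsa (-0.04), Ctsz (-0.07), Ctsl (-0.11), Ctsd (-0.13) and Ctsh (-0.16) were then smaller in size, while that of Ctsf (-0.10) was not. Among the 293 genes with a mean of at least 100 nRPKM, the level of the other 9 members, 193 estimates were negative and 100 positive, with a median of -0.04, and 11 genes were called lower and 0 higher.

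Ctse (ENSMUSG00000004552) lies on the plus strand of chromosome 1, from 131638306 to 131675505 (GRCm38). Its level was lowest 6.44, median 7.34 and highest 21.8 nRPKM in the 7 Trem2wt mice, and lowest 1.52, median 3.14 and highest 4.80 in the 6 Trem2ko mice. All 6 Trem2ko mice lay below all 7 Trem2wt mice, a pattern without overlap that 209 of the 17086 genes showed in this direction (1.22%, on counts scaled to library size). Of the Trem2wt mice, 6 sat close together between 6.44 and 8.13 nRPKM and replicate 3 stood far above them. The log2 fold change was -1.60 ± 0.33 (SE; 95% confidence interval -2.30 to -0.90, adjusted p = 0.0183), or 3.03-fold lower in Trem2ko mice. Without Trem2wt replicate 3 it was -1.23 (adjusted p = 0.0131).

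The count behind this value was 528 to 4777 reads in Trem2wt and 262 to 1821 in Trem2ko libraries, well above the 3 reads that a count of 0 allows. No 50-base stretch of its annotated transcripts, the length of a read, was shared with another gene on either strand, and no exon overlapped one of another gene. As a percentage of the Ctsd level in the same mouse, Ctse was 0.102% ± 0.041 in Trem2wt and 0.0397% ± 0.013 in Trem2ko mice (lowest Trem2wt 0.0744%, highest Trem2ko 0.0573%). This percentage reuses the Ctse values above, so its lack of overlap is not a separate result. The coefficient of variation of Ctse was 41.7% in Trem2ko mice, against at most 13.4% (Ctsd) for the other 9. In Trem2wt mice it was 59.6% with all 7 and 10.5% without replicate 3, below that of Ctsa over the same 6 mice (12.7%), a comparison added after the values were seen.

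**Figure D2:**
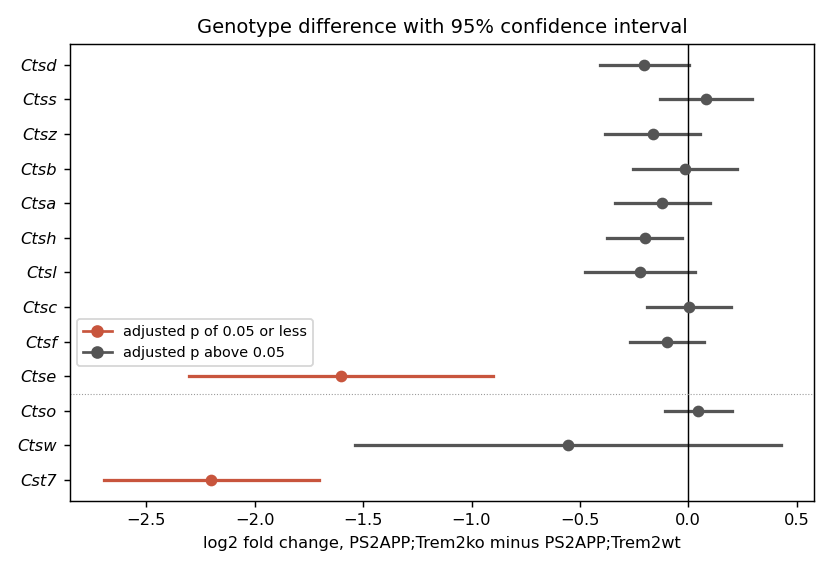
Log2 fold change of PS2APP;Trem2ko (n = 6) minus PS2APP;Trem2wt (n = 7) microglia for the 10 cathepsins, and below the dotted line for the 2 other cathepsins tested and the inhibitor Cst7; points are edgeR estimates and lines their 95% confidence intervals, red where the adjusted p was 0.05 or less. Ctse (-1.60) and Cst7 (-2.20) lie far to the left, and the intervals of the other 9 members lie between -0.48 and 0.30.

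Ctsd, the other aspartic member, did not pass the test. Its lowest, median and highest levels were 7588, 8426 and 11324 nRPKM in Trem2wt and 6540, 7494 and 9091 in Trem2ko mice, so the upper Trem2ko mice sat among the Trem2wt ones. The log2 fold change was -0.20 ± 0.10, with an interval of -0.41 to 0.005 (adjusted p = 0.351). On the linear scale that interval runs from -24.7% to 0.361%. Ctsd and Ctse were not compared in a test of their difference.

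Ctsh had the only other interval that left out 0. Its lowest, median and highest levels were 431, 476 and 569 nRPKM in Trem2wt and 386, 413 and 488 in Trem2ko mice, with 3 of 6 Trem2ko mice below every Trem2wt mouse on this scale. The log2 fold change was -0.20 ± 0.08 (interval -0.38 to -0.03), with an unadjusted p of 0.0265 that did not pass over all genes (adjusted p = 0.254).

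Among the cysteine endopeptidases, Ctsl stood at 204, 244 and 365 nRPKM (lowest, median, highest) in Trem2wt and 191, 208 and 250 in Trem2ko mice, with a log2 fold change of -0.22 ± 0.12 (interval -0.48 to 0.03, adjusted p = 0.41). Ctss, the most abundant of them, was at 4755, 5245 and 7351 in Trem2wt and 5352, 5569 and 6967 in Trem2ko mice. Its estimate was positive, 0.08 ± 0.10, with an interval of -0.13 to 0.30, or -8.53% to 22.8% on the linear scale (adjusted p = 0.752). Ctsb was at -0.02 ± 0.11 (interval -0.26 to 0.22, adjusted p = 0.967) and Ctsf at -0.10 ± 0.08 (interval -0.27 to 0.07, adjusted p = 0.629). None of these 4 differed beyond the spread between mice.

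Of the exopeptidases, Ctsz was at -0.16 ± 0.10 (interval -0.38 to 0.06, adjusted p = 0.497) and Ctsa at -0.12 ± 0.10 (interval -0.34 to 0.10, adjusted p = 0.639). Ctsc had one of the estimates nearest to 0, 0.01 ± 0.09 with an interval of -0.19 to 0.20 (adjusted p = 0.986). An adjusted p above the threshold does not show equal levels. For the 9 members other than Ctse, the lowest interval bound was -28.2% (Ctsl) and the highest 22.8% (Ctss).

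**Figure D3:**
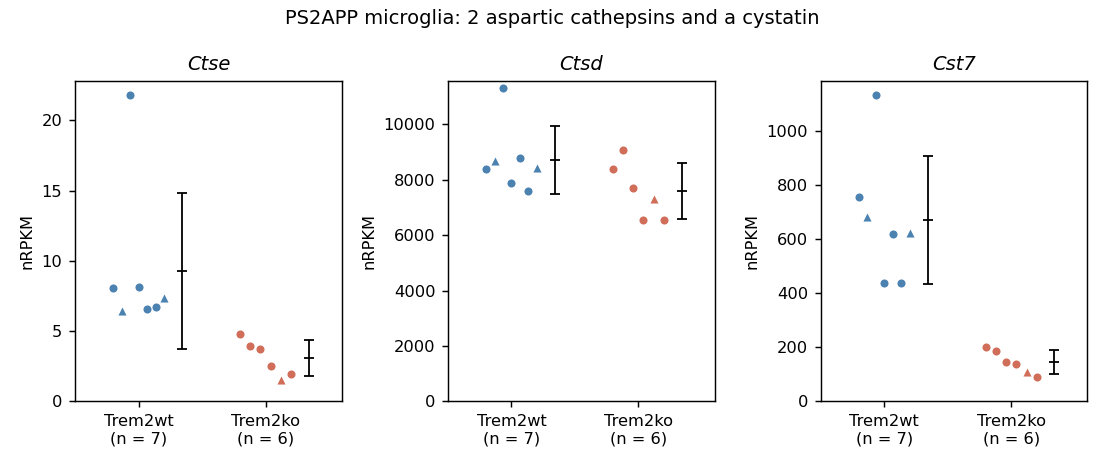
nRPKM of Ctse, Ctsd and Cst7 in each mouse, on linear axes that start at 0; circles are females, triangles males, blue PS2APP;Trem2wt, red PS2APP;Trem2ko, and the black marks are the mean and SD. The genotypes do not overlap for Ctse and Cst7 and overlap for Ctsd, and the highest blue point in each panel is Trem2wt replicate 3.

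Reads of some members cannot be assigned with certainty. In the GENCODE M21 annotation of GRCm38, 34.4% of the exonic bases of Ctsd lie in exons of the predicted gene Gm49369 on the same strand. For Ctsl the figure is 26.8% (Gm47123 and Gm49230), for Ctsa 17.4% (Neurl2 and Pltp) and for Ctsb 12.8% (Fdft1). Gm49230, like Gm49369, is on the same strand as its cathepsin, and the other overlaps are with the opposite strand. The sources used here do not say that the libraries kept strand, so neither kind of overlap can be taken as resolved. These percentages are shares of annotated bases and not of reads. How many reads of these 4 genes are affected was not measured. Ctse, Ctsf, Ctss, Ctsh and Ctsc had no such overlap, and for Ctsz it was 0.694%.

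Within a genotype, most cathepsins rose and fell together from mouse to mouse. Over the 13 mice, after the mean of each genotype was subtracted on the log2(nRPKM + 0.1) scale, 37 of the 45 pairs of members correlated positively, with a median Pearson r of 0.629. The closest pair was Ctsl with Ctss (r = 0.938, 13 mice). The points share library depth, dissociation and sort, and the values are descriptions without a test. Ctsf did not follow the others: its r was negative with 8 of 9 members, and positive with Ctsa. Most of its values were weak (median over the 9 of -0.169, lowest -0.508).

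Much of this rested on 1 mouse. Trem2wt replicate 3, a female, was the highest Trem2wt mouse for 9 of the 10 members and had a median deviation of 0.42 (log2) from the Trem2wt mean. The exception was Ctsf. Without that mouse, 32 of the 45 pairs were positive and the median r fell to 0.359 over 12 mice, while Ctsl with Ctss stayed at 0.870. Ctsa then departed from the others as well. Its median r was -0.121, with 4 of its 9 pairs positive, and its r with Ctsf was 0.817. Of the 3 promoters shown, CACGTG is in those of Ctsd and Ctsl and not in that of Ctss, and it is also in the promoter of Ctsf. Whether the motif has a part in these correlations was not tested. Astrocyte markers (35.1 nRPKM summed over 4 genes) and oligodendrocyte markers (28.6 over 3) were also highest of the Trem2wt mice in replicate 3, while its microglial markers summed to 18112 nRPKM, within the range of the others. Their part in its cathepsin levels was not tested. Among Trem2ko mice, replicates 2 and 3 were each above the mean for 8 of 10 members, with median deviations of 0.17 and 0.14.

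**Figure D4:**
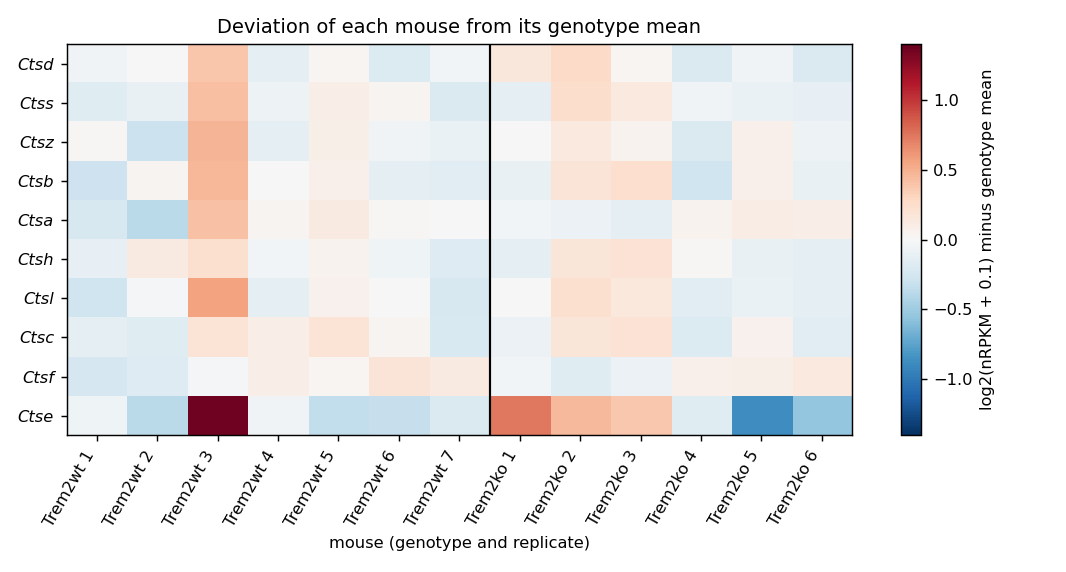
Deviation of each mouse from the mean of its genotype, as log2(nRPKM + 0.1), for the 10 cathepsins in order of level; red is above and blue below the mean, and the black line separates the 7 PS2APP;Trem2wt from the 6 PS2APP;Trem2ko mice. The column of Trem2wt replicate 3 is red in 9 of 10 genes, and the strongest colours are those of Ctse in that mouse and in Trem2ko replicates 1 and 5.

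The genes whose levels followed Ctse most closely over the 13 mice, among 11014 tested genes with a mean of at least 1 nRPKM, were Slc39a4, a zinc transporter (r = 0.961), Actr3b, an actin-related protein (r = 0.904), and Ptcd1 (r = 0.901), with genotype means removed. Without Trem2wt replicate 3, Slc39a4 was still the closest (r = 0.918, 12 mice), while Actr3b ranked 28th (r = 0.792) and Ptcd1 24th (r = 0.805). Actr3b was itself lower in Trem2ko mice, from 7.67 ± 3.5 to 2.5 ± 0.80 nRPKM (log2 fold change -1.63 ± 0.25, adjusted p = 0.00237). Slc39a4 averaged 7.45 ± 1.7 and 5.35 ± 0.91 (log2 fold change -0.48 ± 0.14, adjusted p = 0.097), and Ptcd1 8.38 ± 1.0 and 8.25 ± 0.73 (log2 fold change -0.03 ± 0.09, adjusted p = 0.93).

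Of 13 other mouse cathepsins looked up, 2 passed the filter on low counts. Ctso, a cysteine protease, averaged 67.4 ± 7.5 nRPKM in Trem2wt and 69.7 ± 3.5 in Trem2ko mice (log2 fold change 0.05 ± 0.07, adjusted p = 0.821). Ctsw, a cathepsin of T and natural killer cells, averaged 1.26 ± 0.83 and 0.860 ± 0.59 (-0.55 ± 0.46, adjusted p = 0.629). By edgeR 0 of the 2 were called, 0 had an unadjusted p under 0.05, and voom with limma and DESeq2 called 0. The 11 that did not pass were Ctsg of neutrophil granules, Ctsk of osteoclasts and 9 relatives of the rodent placental cathepsins, none of them above 0.188 nRPKM in any mouse.

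The inhibitor Cst7 had a larger estimated change than any cathepsin tested, though the difference between them was not tested. Cst7 (ENSMUSG00000068129, chromosome 2, 150570415 to 150578944, plus strand) encodes cystatin F, a cystatin that reaches the lysosome and inhibits cysteine cathepsins, Ctsc among them. Its lowest, median and highest levels were 439, 621 and 1133 nRPKM in Trem2wt and 91.8, 143 and 202 in Trem2ko mice, so the highest Trem2ko mouse was below the lowest Trem2wt mouse. The log2 fold change was -2.20 ± 0.23 (interval -2.70 to -1.70, adjusted p = 8.18e-05), or 4.6-fold lower. Set against the summed nRPKM of the 10 cathepsins in the same mouse, Cst7 was 3.39% ± 0.80 in Trem2wt (n = 7) and 0.793% ± 0.20 in Trem2ko mice (n = 6). That sum includes Ctsd, Ctse and Ctsa, which are not cysteine proteases, so the percentage is not one of inhibitor to its targets.

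The other inhibitors did not pass the test. Of 12 cystatins, stefins and serpins listed, 8 were tested, 1 was called lower (Cst7) and 0 higher, and none but Cst7 had an unadjusted p under 0.05. Voom with limma and DESeq2 also called 1 lower and 0 higher. The list had a median log2 fold change of -0.05. Cst3, the secreted cystatin C, was the most abundant of them at 17542 ± 1462 nRPKM in Trem2wt and 16103 ± 1818 in Trem2ko mice (log2 fold change -0.12 ± 0.08, adjusted p = 0.491).

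Among 13 genes that carry cathepsins to the lysosome, all were tested, 1 was called higher and 0 lower, with a median of -0.05. At an unadjusted p under 0.05, 1 was higher (Gga3) and 1 lower (Gga1), and voom with limma and DESeq2 each called 1 higher and 0 lower. The called gene was Gga3, a Golgi adaptor for the mannose 6-phosphate receptors, at 10.2, 13.1 and 14.7 nRPKM (lowest, median, highest) in Trem2wt and 15.4, 16.4 and 17 in Trem2ko mice. Its log2 fold change was 0.32 ± 0.08 (adjusted p = 0.0409), a call that was lost in 9 of the 13 fits that left out 1 mouse (adjusted p up to 0.0878) and in females only (0.0868). Its family members Gga1 and Gga2 had negative estimates, -0.23 ± 0.09 (adjusted p = 0.245) and -0.05 ± 0.10 (adjusted p = 0.859), and were picked for mention after their values were seen. Psap, the saposin precursor and partner of Ctsd, was the most abundant, 814 ± 232 and 802 ± 148 nRPKM (-0.02 ± 0.18, adjusted p = 0.973). M6pr, a mannose 6-phosphate receptor, followed at 85.6 ± 7.5 and 87.0 ± 6.6 (0.02 ± 0.07, adjusted p = 0.93).

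Of 7 processing and client partners of the cathepsins, 0 were called by edgeR or by voom with limma, 2 were lower at an unadjusted p under 0.05 (Galns and Glb1), and DESeq2 called 1 lower (Galns). The list had a median of 0.00017. Lgmn, the asparaginyl endopeptidase that matures several cathepsins, averaged 1696 ± 176 nRPKM in Trem2wt and 1698 ± 117 in Trem2ko mice (0.00 ± 0.07, adjusted p = 0.999). Grn, the progranulin precursor that cathepsins cut into granulins, averaged 1119 ± 206 and 993 ± 83.3 (-0.17 ± 0.11, adjusted p = 0.489). Galns, which joins the complex that Ctsa forms, averaged 11.0 ± 2.8 and 8.11 ± 0.77 (-0.44 ± 0.14, adjusted p = 0.123), and Glb1, the β-galactosidase of that complex, 73.2 ± 13.9 and 60.1 ± 4.9 (-0.29 ± 0.11, adjusted p = 0.209).

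Of the 4 MiT/TFE factors, 3 were present at modest levels and were tested, while Tfec, at 0.045 and 0.16 nRPKM on average, did not pass the filter. By edgeR, voom with limma and DESeq2 0 were called, and 0 had an unadjusted p under 0.05. Tfe3 averaged 38.0 ± 3.6 nRPKM in Trem2wt and 36.9 ± 3.7 in Trem2ko mice (-0.05 ± 0.08, adjusted p = 0.846), and Tfeb 8.74 ± 0.79 and 8.43 ± 0.73 (-0.05 ± 0.08, adjusted p = 0.797). Mitf had the largest estimate of the list, at 3.28 ± 0.81 and 4.08 ± 0.67 nRPKM (0.32 ± 0.15, adjusted p = 0.346), and was picked for mention after its value was seen. The list had a median of -0.05.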

How the data were processed

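Sorted microglia of 13 PS2APP mice were profiled by SMART-seq v4 RNA sequencing (single-end reads). The authors removed adapters, low-quality and ribosomal reads, aligned with GSNAP to GRCm38 and deposited, for each mouse, raw gene counts and nRPKM, an RPKM scaled by a size factor per library; the aligner's version is not given in the sources used here. Here, the deposited counts were tested with edgeR 4.0.16 (R 4.3.3; TMM scaling, filterByExpr by genotype, quasi-likelihood F test, no covariate) across 17086 genes, with Benjamini-Hochberg adjustment over all of them and calls at 0.05 or less. The standard error is the log2 fold change over the root of F. The deposited nRPKM values give levels, with no test. The study used voom with limma and a 2-fold cutoff, which are alternatives here beside DESeq2 1.42.0, limma 3.58.1 on log2(nRPKM + 0.1 or 1), other scalings and filters, sex, and leaving out each mouse. Fits were tested on simulated counts of 16660 genes. Of genes given a log2 change of 1, edgeR called 73.3%, voom with limma 75.6% and DESeq2 78.9%. Of genes given no change, edgeR called 10, voom with limma 14 and DESeq2 38. No 2 libraries of a genotype agreed within sampling noise (36 pairs).

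All 10 cathepsins, the other cathepsins that passed the filter, each called gene of the other lists and the 2 most abundant of each list are named. The family and the gene lists were chosen with earlier results of these data known; the rule for the 10 genes is their symbols. Limits from counts cover counting error only.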

Additional observations from a re-analysis of the deposited data

Results flagged for a closer look

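In 8 of 42 gene and genotype combinations (the 21 genes named by the rule above, each in both genotypes), the highest or lowest mouse stood further from its neighbour than Dixon's 95% critical value allows. Chance marks about 1 in 20. Of the 8, 7 were high values of the same mouse, PS2APP;Trem2wt replicate 3, so they are not independent. In that mouse Ctse was at 21.8 nRPKM against a next highest Trem2wt value of 8.13, and the gap took 0.890 of the Trem2wt range. Ctsd was at 11324 (next 8799), Ctss at 7351 (next 5857), Ctsz at 2939 (next 2239), Ctsb at 1861 (next 1409), Ctsl at 365 (next 257) and Ctso at 82.8 (next 68.4). Its library held 79883820 counts, inside the range of the Trem2wt group, and its TMM factor of 0.907 was the lowest of the 13 mice. The remaining value was low: Tfeb at 7.0 nRPKM in PS2APP;Trem2ko replicate 2, where the next lowest Trem2ko mouse was at 8.40.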

How the results depend on the processing

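No paired analysis was possible because the labels do not say which mice were paired. By the methods, a mouse of each genotype was generally handled side by side from perfusion to sorting, and the unpaired fits ignore this. In each of the 23 alternative fits, 1 cathepsin was called lower and 0 higher; Ctse was the one called, with an adjusted p of 0.00075 to 0.0479, and its log2 fold change ran from -1.77 to -1.23 over the 13 fits that left out 1 mouse. A cutoff of 2-fold kept Ctse. In the other lists the count of genes lower was 1 and rose to 2 with DESeq2, and the count higher was 1 and fell to 0 with no filter on low counts (Gga3 adjusted p = 0.0574), in females only and, with 1 mouse left out, ranged from 0 to 1. Over all genes, DESeq2 called 530 lower and 332 higher against 262 and 86 by edgeR. Calls lower were 173 in females only, and calls higher 53 with no filter and 42 to 107 with 1 mouse left out. The cause of these shifts was not tested. Estimates that changed sign all lay near 0 and were not called: Ctsc was -0.0056 with sex as a covariate and -0.0766 in females only, Lgmn -0.0481 in females only and -0.00040 with libraries thinned to equal depth, M6pr -0.0075 in females only, and Psap 0.0100 with voom and 0.0142 and 0.0141 with limma on nRPKM. With 1 mouse left out the estimates ran from -0.063 to 0.0727 for Ctsb, -0.0351 to 0.0414 for Ctsc, -0.0339 to 0.0366 for Lgmn, -0.0065 to 0.0563 for M6pr, -0.118 to 0.0911 for Psap and -0.0806 to 0.00606 for Tfe3. Depth did not limit the cathepsins, whose lowest count in any library was 262 (Ctse).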
